A study of Mus musculus with 4 samples.

Results

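In the oviducts of neonatal mice, a minority of stromal cells carried transcripts of the neurofilament genes Nefl and Nefm, which are otherwise known from neurons. The cells were taken by a rule on unique molecular identifiers (UMIs, each counting 1 captured transcript): at least 500 genes, at most 15% of UMIs from mitochondrial genes, at least 2 UMIs of Nefl and Nefm together, at least 1 UMI of the stromal genes Pdgfra, Dpt, Lum or Postn, and 0 UMIs of Epcam (epithelium), Pecam1 (endothelium) and Upk3b (mesothelium). The rule took 962 cells, 586 from oviduct replicate 1 and 376 from oviduct replicate 2. They were part of 8450 oviduct cells that met every condition except the neurofilament one, of 12760 oviduct barcodes that passed the quality limits, and of 26619 barcodes called as cells in the 4 libraries of the study. Because measured values chose them, the levels of these 9 genes are described here and were not tested.

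The study profiled oviduct and uterus of wild-type CD1 (ICR) mice on postnatal day 3, without treatment, by droplet single-cell RNA sequencing of the 3' ends of transcripts. Each organ had 2 libraries, and by the study's design text both organs came from the same pools of 3 and of 4 neonates. Cells were freed from the tissue by Dispase II, by Collagenase B and by DNase I. The sources used here do not say which replicate number belongs to which pool. A p-value below rests on pooled libraries and does not measure the spread between animals. Inside an organ, where a library term was fitted, it measures how far the difference between cell groups varied between the 2 libraries. Each library's sum over many cells counts as 1 sample, and 2 samples a group limit the precision of every comparison.

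Neurofilaments are intermediate filaments that fill axons and set their calibre. Nefl, the light subunit, and Nefm, the medium subunit, assemble together, usually with Nefh and with Ina or Prph. The stroma of the neonatal oviduct lies between the epithelium and the forming muscle coat; its fibroblasts deposit matrix and secrete signals that pattern the epithelium. Cxcl13, a chemokine that attracts B cells, Pi15, a secreted protein of the peptidase inhibitor family, and Agtr2, the type 2 angiotensin II receptor, had been named as markers of these cells from the same data, together with Dpt, so that their levels are likewise a description.

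The libraries held between 61117726 and 114419939 UMIs over their called barcodes. The quality limits removed 11.4% and 13.8% of oviduct barcodes and 29.0% and 28.7% of uterine barcodes. Between 8 and 15 barcode sequences were shared by any pair of libraries, and 0 of these met the rule in both libraries of a pair. The replicates were different libraries: the chi-square per degree of freedom between the summed counts of the neurofilament-positive cells was 5.92. Scrublet, which scores barcodes for resemblance to simulated doublets, marked 52 of the cells in replicate 1 (8.87%) and 6 in replicate 2 (1.60%). Among stromal cells with 0 neurofilament UMIs it marked 4.78% and 4.53%.

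The cells carried from 2 to 119 neurofilament UMIs in replicate 1, with a median of 9, and up to 127 in replicate 2, with a median of 6. Both subunits were seen in 408 cells of replicate 1 (69.6%) and in 220 of replicate 2 (58.5%), Nefl alone in 66 and 50 cells, and Nefm alone in 112 and 106. In sums over the cells, Nefl stood at 272 and 245 UMIs per 1000000 UMIs of the sum (CPM) and Nefm at 748 and 622 CPM. Of all stromal cells, 3867 and 3090 had no neurofilament UMI, 316 and 215 had 1, just outside the rule, 104 and 84 had 2, just inside it, 122 and 94 had 3 to 5, and 360 and 198 had 6 or more. Cells with 6 or more UMIs were therefore the most numerous class within the rule in both libraries.

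Neurofilament-positive cells made up 12.3% of stromal cells in oviduct replicate 1 (586 of 4769; exact Clopper-Pearson 95% interval 11.4 to 13.3%) and 10.2% in replicate 2 (376 of 3681; 9.25 to 11.2%). In the uterus, whose libraries the rule did not use, the same conditions took 24 of 2538 stromal cells (0.946%; 0.607 to 1.40%) and 28 of 2728 (1.03%; 0.683 to 1.48%). The mean share in the oviduct was 11.3% ± 1.47, and that in the uterus 0.986% ± 0.0571 (SD, n = 2 libraries each), a difference of 10.3 percentage points and a ratio of 11.4. Both oviduct libraries lay above both uterine libraries. No test is given, because counts of the same genes chose the cells. After every cell was thinned to 5000 UMIs, the oviduct shares were 9.29% and 7.98% and the uterine shares 0.575% and 0.605%. These intervals cover counting error only. Stromal cells here are all cells that met the conditions, which most cells of the muscle and pericyte clusters described below also met.

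Other cell types of the oviduct held few such cells. Endothelial cells, taken as barcodes with 2 or more Pecam1 UMIs and none of the stromal genes, held 0 of 118 and 0 of 120 cells with 2 neurofilament UMIs, which allows shares of up to 2.54% and 2.5% by the limit of 3 counts (exact 95% upper bounds of 3.08% and 3.03%), at median depths of 18890 and 15990.5 UMIs. Epithelial cells (Epcam) held 5 of 200 (2.5%) and 3 of 301 (0.997%), and mesothelial cells (Upk3b) 7 of 356 (1.97%) and 4 of 410 (0.976%), at median depths between 14926.5 and 27843 UMIs. After thinning to 5000 UMIs, these 3 classes were taken anew on the thinned counts, so their cells differ in part. Epcam cells then held 0 of 120 and 0 of 175, Pecam1 cells 0 of 101 and 0 of 94, and Upk3b cells 0 of 361 and 0 of 372. No interval is given for these counts. The stromal cells kept 9.29% and 7.98%. All 3 classes were limited to barcodes with none of the stromal genes. In droplets of at most 100 UMIs, Nefm stood at 51.3 and 27.2 CPM, against 67.4 and 44.0 CPM over all kept oviduct barcodes.

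**Figure D1:**
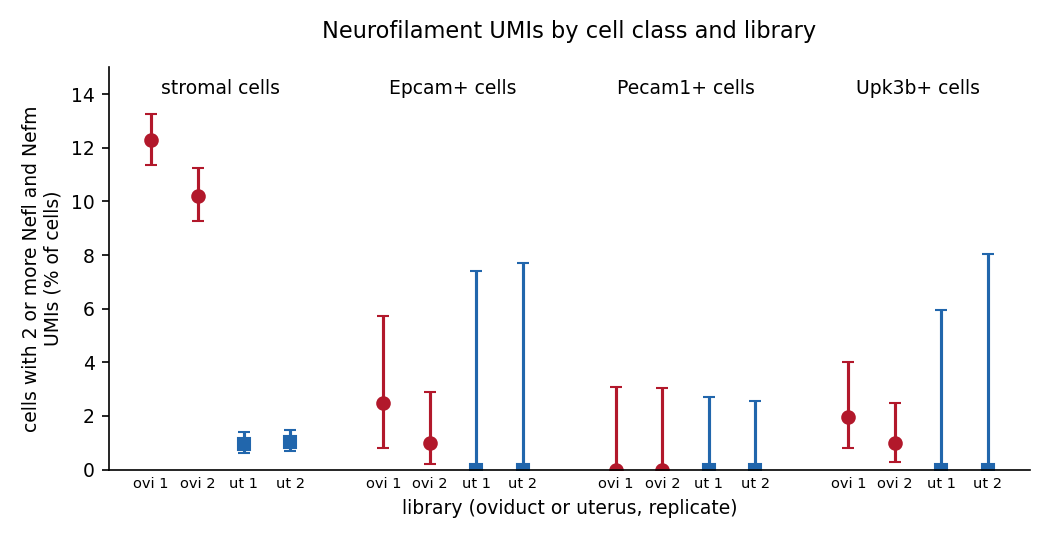
Share of cells with 2 or more Nefl and Nefm UMIs (vertical axis, percent) in stromal cells and in Epcam, Pecam1 and Upk3b cells of each library (horizontal axis); circles are oviduct and squares uterine libraries, and bars are exact 95% intervals. The stromal shares of 12.3% and 10.2% in the oviduct stand above every other class, including the uterine stroma at 0.946% and 1.03%.

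The 2 marker genes with a promoter entry in RefSeq's table (GRCm38.p6) are shown because their transcripts were high in the same cells. The 250 bases before each start site are printed 5′ to 3′ in lower case, and capitals mark the motifs found on either strand. The TATA box was searched as TATAAA, the CAAT box as CCAAT, the GC box as GGGCGG and the cyclic AMP element as TGACGTCA; no motif contains another.
Cxcl13, chr5:95956689-95956938, plus strand: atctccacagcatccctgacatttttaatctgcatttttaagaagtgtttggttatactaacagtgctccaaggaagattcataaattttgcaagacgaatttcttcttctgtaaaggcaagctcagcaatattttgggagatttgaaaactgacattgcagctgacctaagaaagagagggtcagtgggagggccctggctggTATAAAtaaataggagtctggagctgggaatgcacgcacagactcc
Agtr2, chrX:21484374-21484623, plus strand: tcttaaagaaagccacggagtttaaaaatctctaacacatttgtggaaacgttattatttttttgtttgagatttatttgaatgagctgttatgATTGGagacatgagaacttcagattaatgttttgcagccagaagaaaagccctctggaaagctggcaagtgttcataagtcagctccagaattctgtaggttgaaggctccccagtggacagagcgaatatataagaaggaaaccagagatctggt
Cxcl13 has TATAAA 46 bases before its start, and Agtr2 has CCAAT on the other strand 156 bases before its start. Of 32536 promoter windows of this length, 12.3% hold the TATA box as searched, 33.8% the CAAT box, 33.0% the GC box and 1.56% the cyclic AMP element. A match is a description of these letters. Only the exact letters were searched, so a window without a mark may still hold another form of the same box. In the same assembly Nefl (chromosome 14, 68083863 to 68089095) and Nefm (chromosome 14, 68119545 to 68125004) lie 30449 bases apart, with 1 gene between them.

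The label of neurofilament stroma was met in part. Of the markers given for it, Nefl, Nefm and Dpt were part of the rule, and Cxcl13, Pi15 and Agtr2 are described below against stromal cells without neurofilament UMIs. Dpt, a matrix protein of fibroblasts that the rule used, stood at 267 and 264 CPM against 47.1 and 42.5 CPM. The neuronal genes Th, Chga and Chat had 0 UMIs in the cells of both libraries, and Tubb3, the neuronal tubulin, was seen in 7 of 586 and 6 of 376 cells. Yet the 21 genes of the neuron list summed to 254 and 217 CPM against 147 and 144 CPM in matched stroma, of which Stmn2 alone gave 125 and 92.2 CPM in the cells. Glial markers summed to 9.51 and 10.5 CPM over 10 genes, against 11.9 and 11.8 CPM in matched stroma. The other filament partners of neurons, Nefh, Ina and Prph, did not exceed 0.604 CPM in the cells of either library. Only RNA was measured, so that nothing is known here of filament protein.

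The rule did not take a uniform population. Clustering of 12104 oviduct barcodes without the 9 genes of the rule and without barcodes that Scrublet marked placed 431 of the remaining 904 cells (47.7%) in 1 cluster of 550, led by Nefm, Cxcl13, Nefl, Agtr2, Pi15, Slc26a7 and Dpt. That cluster held 50.7% of the cells of replicate 1 and 43.2% of those of replicate 2, and 78.4% of its own cells met the rule. The other 473 cells were spread over clusters led by other genes, with the largest numbers being 101 in a cluster led by Nr4a3 and Brinp3, 88 in a cluster led by Pdlim3, Lum and Tcf21, 64 in an S-phase cluster, 52 in the cluster with Zim1, Angptl7 and Hsd11b2, 35 in a cluster led by Fibin and Cemip, 31 in a G2/M cluster and 31 in the Myh11 cluster. The cluster was formed from the same counts, so the values below are a description.

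Within the cluster the cells carried high marker levels and few muscle or cycling transcripts. Cxcl13 stood at 252 and 314 CPM in the rule's cells inside the cluster, at 40.6 and 25.9 CPM in those outside it, and at 2.21 and 2.05 CPM in other stroma outside it. Agtr2 stood at 372 and 399.7 CPM inside, 74.1 and 66.9 CPM outside, and 18.0 and 13.5 CPM in the other stroma. The cells outside were thus intermediate for both genes in both libraries. Mki67, a marker of cycling cells, stood at 8.84 and 18.6 CPM inside and at 236 and 229.5 CPM outside, and Myh11, the smooth muscle myosin heavy chain, at 3.54 and 4.65 CPM inside and at 92.8 and 184 CPM outside. The 34 and 21 stromal cells of the cluster with no neurofilament UMI carried Cxcl13 at 149 and 120.5 CPM and Agtr2 at 273 and 361 CPM.

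**Figure D2:**
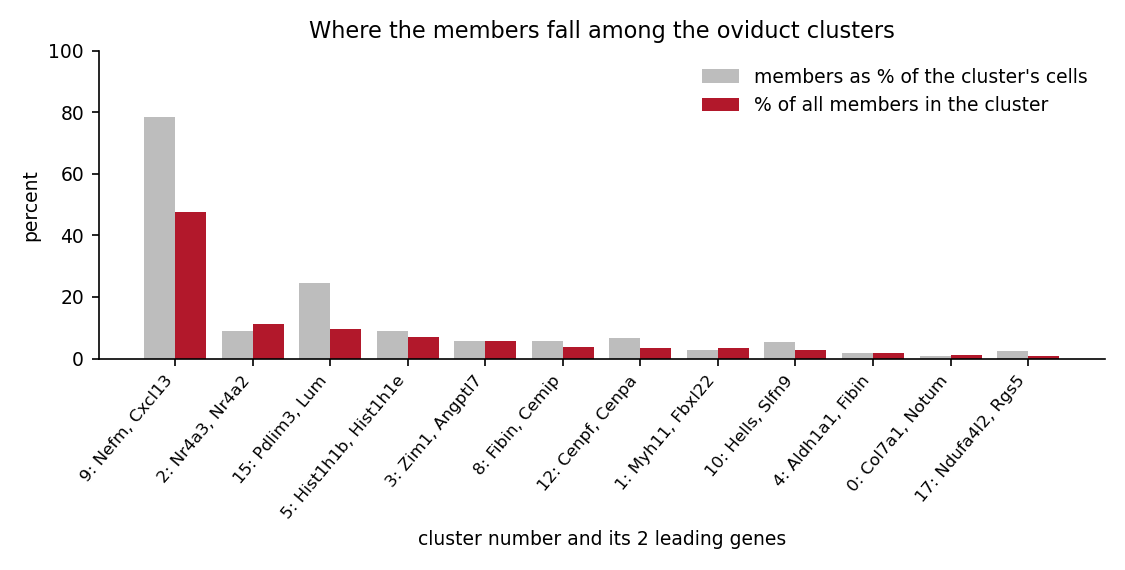
Members by oviduct cluster: for the 12 clusters with the most neurofilament-positive cells (horizontal axis, cluster number and leading genes), grey bars give the percentage of the cluster's cells that met the rule and red bars the percentage of all such cells that lay in the cluster. A single cluster, led by Nefm and Cxcl13, holds 47.7% of them and consists of them to 78.4%; no other cluster exceeds 24.5%.

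Clustered among themselves, the 904 cells fell into 6 groups, each present in both libraries. The largest, of 243 cells, was led by haemoglobin transcripts with Cxcl13, Slitrk4 and Snap25. It was followed by groups of 174 cells led by Nts, Pdlim3 and Egfl6, of 170 led by Wnt16, Pthlh and Fst, of 151 led by cell cycle genes such as Top2a, of 98 led by the myeloid genes Ccl3, Ccl4 and C1qa, and of 68 led by Cxcl14 and Angptl7. The haemoglobin and myeloid leaders are genes of other cell types, and their part in these groups was not tested.

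To compare these cells with the stroma around them, each was matched within its library to a stromal cell with 0 neurofilament UMIs and the nearest total UMI count, which gave median depths of 13626 against 13623 and 12090.5 against 12090 UMIs. The counts were summed per library and tested with edgeR's quasi-likelihood test with a term for library, and genes whose p stayed under 0.05 after Benjamini-Hochberg adjustment were called. Of 12691 genes tested, 1228 were higher in the neurofilament-positive cells (9.68%) and 1269 lower (10.0%), 19.7% in all. In sums over cells, more cells with a transcript and more transcript per cell cannot be told apart, so the share of cells with a UMI is added for the leading genes. The fit without the library term called 1208 genes and DESeq2 568, of which 1208 and 567 were among the 2497. The matched cells carried fewer UMIs of the 4 stromal genes of the rule (medians of 6 and 5, against 15 and 12), whose part in these differences was not tested.

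Cxcl13 had the largest fold change among the genes named by size. It stood at 129 and 125 CPM in the neurofilament-positive cells and at 2.80 and 1.63 CPM in the matched cells, a log2 fold change of 5.72 ± 0.14 (SE). It was seen in 23.7% and 21.3% of the cells, against 2.05% and 0.532% of matched cells, so that most cells of the group had no Cxcl13 UMI. Agtr2 stood at 195 and 183 CPM against 19.3 and 13.5 CPM (3.47 ± 0.09), with a UMI in 64.0% and 57.4% of cells against 14.3% and 9.84%. Pi15 stood at 216 and 239 CPM against 26.7 and 27.4 CPM (3.04 ± 0.08), with a UMI in 65.2% and 62.0% of cells against 20.5% and 19.9%. The libraries of the 2 groups did not overlap for any of the 3 genes, as for 50.5% of all 12691 genes tested. In droplets of at most 100 UMIs Cxcl13 stood at 9.30 and 7.01 CPM, Agtr2 at 33.1 and 27.9 CPM and Pi15 at 25.0 and 22.2 CPM. The matched cells thus lay below the droplets for Cxcl13 and Agtr2, and the part of free RNA in their UMIs was not tested.

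Beyond the markers, 9 further genes headed the higher calls by the fixed rule of size. Shisa3, of a family that holds back Wnt and Fgf receptors, stood at 41.7 and 42.1 CPM against 1.68 and 2.24 CPM (log2 fold change 4.44 ± 0.19). The ectonucleotidase Enpp3 stood at 56.9 and 58.2 CPM against 3.81 and 4.90 CPM, and the secreted metalloprotease Adamts16 at 41.6 and 40.9 CPM against 3.70 and 2.86 CPM. Enpp3 thus rose by 3.74 and Adamts16 by 3.58 on the log2 scale. The flavin monooxygenase Fmo2 rose by 3.52, Slitrk4, a synaptic adhesion protein, by 3.40, the anion exchanger Slc26a7 by 3.26, Stmn2, a microtubule regulator known from neurons, by 2.98, the matrix protein Ecm1 by 2.85 and the alcohol dehydrogenase Adh1 by 2.58.

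The same rule of size took 12 lower genes. Notum, an extracellular esterase that inactivates Wnt ligands, stood at 11.98 and 9.87 CPM against 58.5 and 46.5 CPM (log2 fold change -2.29 ± 0.12). Wnt16, a Wnt ligand, stood at 56.5 and 48.3 CPM against 227 and 215 CPM (-2.09 ± 0.08) and was seen in 23.0% and 19.1% of cells against 61.9% and 59.3%. In the near-empty droplets it stood at 94.6 and 76.1 CPM, above the neurofilament-positive cells and below the matched cells. Bmp7, a BMP ligand, stood at 8.95 and 8.46 CPM against 35.5 and 28.4 CPM (-1.92 ± 0.15). The retinaldehyde dehydrogenase Aldh1a1 stood at 21.0 and 16.5 CPM against 66.9 and 74.5 CPM (-1.88 ± 0.10). The other named genes were the collagens Col7a1 (-1.90), Col13a1 (-1.63) and Col18a1 (-1.60), the adrenergic receptor Adra2a (-1.83), cardiac troponin Tnnt2 (-1.79), the proteoglycan Srgn (-1.76), agouti (symbol a, -1.76, uncertain because the gene shares its strand and position with Raly) and the F-box gene Fbxl22 (-1.58). Each of these 12 genes and of the 9 above was also called by edgeR without the library term, at adjusted p of at most 0.00340, and by DESeq2, at adjusted p of at most 7.03e-06. Col7a1, Notum, Wnt16 and agouti were among the leading genes of an oviduct cluster, and Aldh1a1 and Col13a1 of another. Fbxl22 and Tnnt2 were among those of the Myh11 cluster. Of stromal cells with 0 neurofilament UMIs, 50.1% and 45.7% carried at least 2 Wnt16 and Notum UMIs together. The neurofilament-positive cells did so to 15.5% and 11.2%. The part of the matched cells' make-up in the lower genes and in the Wnt list below was not tested.

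**Figure D3:**
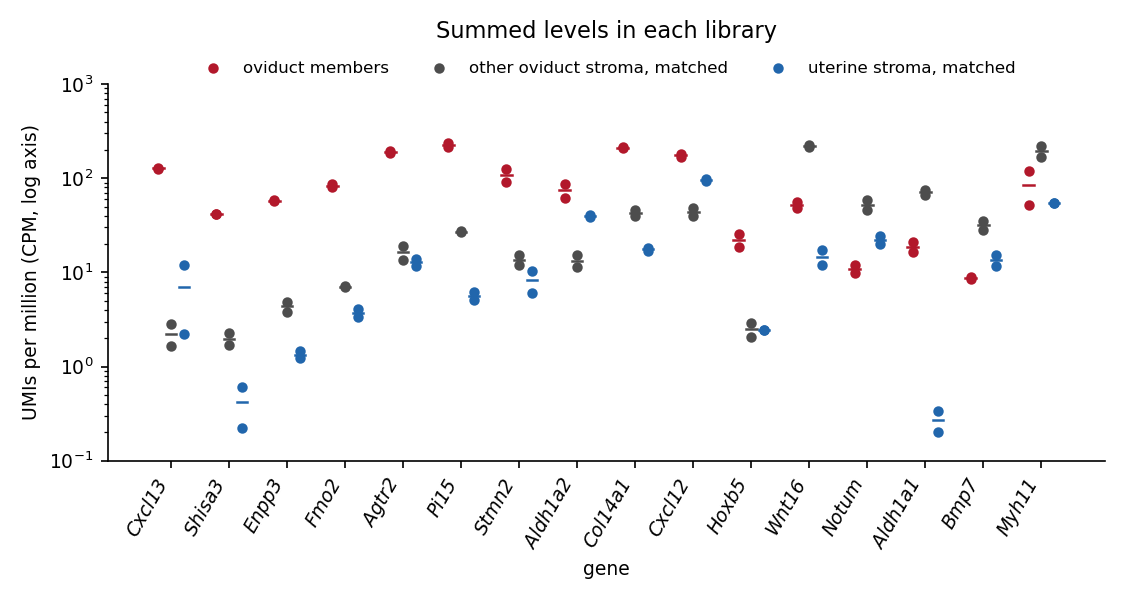
Summed levels (vertical axis, CPM on a log scale) of 16 genes (horizontal axis) in each library: neurofilament-positive oviduct cells (red), matched oviduct stroma without neurofilament UMIs (grey) and matched uterine stroma (blue); points are libraries and lines their means. Cxcl13 to Hoxb5 lie higher in the red points than in the grey ones, and Wnt16 to Myh11 lower, in both libraries.

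The counts of gene lists in the following paragraphs stand against 9.68% of all genes higher and 10.0% lower. The higher counts include Cxcl13 among chemokines, Agtr2 among receptors and Pi15 among proteases and their inhibitors. These genes had been named as markers from the same data. Retinoid genes moved in opposite directions. Of 16 tested, 5 were higher and 4 lower, and the list's median log2 fold change was 0.13, against 0.00018 over all genes. Aldh1a2, the main enzyme of embryonic retinoic acid synthesis, stood at 87.9 and 61.0 CPM against 15.1 and 11.4 CPM (2.48 ± 0.11), while Aldh1a1 of the same enzyme family was among the lower genes above. Dhrs3, a retinaldehyde reductase, rose by 1.34 and Rarb, a retinoic acid receptor, by 1.20, and Stra6, the retinol transporter, fell by 1.71. All 4 were called by DESeq2 as well.

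In the Wnt pathway 6 of 31 genes were higher and 13 lower (median -0.16), where 9.68% and 10.0% of all genes were. Lower genes beside Notum and Wnt16 included Lgr5, the R-spondin receptor, which fell by 1.74 (by 2.53 without replicate 1), and higher genes included the receptor Ror1 (1.45 ± 0.13), the secreted antagonist Sfrp4 (1.36 ± 0.08) and the R-spondin ligand Rspo2, at 3.58 and 3.63 CPM against 0.897 and 0.408 CPM (2.28 ± 0.48), whose call DESeq2 did not give (adjusted p = 0.255). In the BMP and TGF-beta list 10 of 31 were higher and 10 lower (median -0.14). Ltbp2, of the family named latent TGF-beta binding proteins, rose by 1.56, and Bmper, a BMP modulator, by 1.54. Fst, the activin antagonist follistatin, fell by 1.38. Bmper was not called by DESeq2 (adjusted p = 0.0747). Hedgehog genes were 4 higher and 0 lower of 8 tested (median 0.17), Notch genes 1 higher and 3 lower of 10 (median -0.095). The Notch target Hes1 was among the lower ones, at 168 and 176 CPM against 339.8 and 345 CPM (-1.02 ± 0.07). Of 14 Fgf genes 2 were higher and 4 lower (median -0.13), and the ligand Fgf10, at 22.7 and 29.4 CPM against 23.0 and 32.2 CPM, did not pass (-0.09 ± 0.12, edgeR adjusted p = 0.69).

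Among chemokines 4 of 15 genes were higher and 6 lower (median 0.28). Cxcl12, the ligand of Cxcr4, stood at 168 and 183 CPM against 39.6 and 48.4 CPM (1.99 ± 0.08). The interferon-induced Cxcl10 stood at 47.0 and 178 CPM against 9.87 and 91.2 CPM (1.33 ± 0.09); it was higher within each library (2.22 without replicate 2), but the groups overlapped and neither edgeR without the library term (adjusted p = 0.415) nor DESeq2 (adjusted p = 0.172) called it. The eosinophil attractant Ccl11 fell by 1.85. Of 22 peptide hormone and angiotensin receptor genes, 7 were higher and 8 lower (median 0.012).

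Of 53 matrix genes tested, 25 rose and 14 fell (median 0.23), against 9.68% and 10.0% of all genes. Col14a1, a fibril-associated collagen, stood at 207 and 215 CPM against 46.5 and 39.6 CPM (2.25 ± 0.08), and the small proteoglycan Ogn rose by 2.16. Col6a4, a collagen VI chain, stood at 6.04 and 6.24 CPM against 30.6 and 28.2 CPM (-2.30 ± 0.17). Of 10 fibroblast markers outside the rule, 7 were higher and 0 lower (median 0.44), among them Tcf21, a mesenchymal transcription factor, at 139.6 and 144 CPM against 48.5 and 41.2 CPM (1.62 ± 0.08), and the proteoglycan Dcn (0.90 ± 0.06). Proteases and their inhibitors were 11 higher and 7 lower of 24 (median 0.20), and Igf genes 4 higher and 5 lower of 12 (median 0.0046); the binding protein Igfbp3 rose by 1.49.

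Hox genes encode transcription factors that mark position along the body axis. Over 27 Hox genes 11 were higher and 4 lower (median 0.038). In a split by gene cluster made after the values were seen, 7 of 8 Hoxb genes were higher and 0 lower (median 1.47), 1 higher and 2 lower of 9 Hoxa genes (median -0.17), 2 higher and 2 lower of 6 Hoxc genes (median -0.21) and 1 higher and 0 lower of 4 Hoxd genes (median 0.080); the difference between gene clusters was not tested. Hoxb5 stood at 25.4 and 18.5 CPM against 2.91 and 2.04 CPM (3.11 ± 0.22), Hoxb6 rose by 2.05 and Hoxb7 by 2.01; DESeq2 did not call Hoxb7 (adjusted p = 0.0911). Hoxc8, at 187 and 197 CPM against 196 and 212 CPM, did not pass (-0.11 ± 0.07, edgeR adjusted p = 0.29), nor did Hoxa11 (0.02 ± 0.38, adjusted p = 0.99), which stayed at or below 3.03 CPM. Of 28 other factors linked to duct identity 8 were higher and 7 lower (median -0.0064). Sox9 stood at 9.29 and 10.9 CPM against 1.01 and 3.06 CPM (2.46 ± 0.30). Its fold was 1.66 without replicate 1 and 4.84 without cycling cells, and it passed in each setting tested. Amhr2, the receptor of anti-Mullerian hormone, fell by 1.90, and by 1.21 without replicate 1.

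Of 10 nuclear hormone receptor genes 2 were higher and 2 lower (median -0.12). Esr1, the oestrogen receptor alpha, stood at 194 and 233 CPM against 270.4 and 320.1 CPM (-0.49 ± 0.07).

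Neurotrophic factors and axon guidance genes were 22 higher and 12 lower of 52 tested (median 0.18). The adhesion molecule Cntn1 rose by 2.26 and the semaphorin Sema3b by 2.15, while the neurotrophin Ntf3 fell by 1.35; DESeq2 called Cntn1 (adjusted p = 0.0465) but not Sema3b (0.182) or Ntf3 (0.451), and Ntf3 was also lost with thinned cells. The fold of Sema3b was 2.86 without replicate 1 and 1.34 without replicate 2. Of 21 neuron markers only 6 had counts enough for a test, of which 2 were higher (Stmn2 and Snap25) and 2 lower (median -0.23). Snap25, a synaptic vesicle fusion protein, stood at 14.2 and 16.1 CPM against 3.36 and 4.29 CPM (1.98 ± 0.23). Of 10 glial markers 4 were tested, of which 1 was higher (S100b) and 1 lower (Gfra3), with a median of -0.30. S100b stood at 4.03 and 4.23 CPM against 1.01 and 1.02 CPM (1.98 ± 0.43), a call that DESeq2 did not give (adjusted p = 0.349).

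Muscle and perivascular markers were lower. The stromal conditions were also met by 83.0% of the cells in the Myh11 cluster. In the clusters led by the pericyte genes Ndufa4l2 and Rgs5, 84.8% and 86.4% of cells met them. These clusters held 3.43%, 0.664% and 0.111% of the clustered neurofilament-positive cells. The part of such cells in the lower markers was not tested. Of 10 smooth muscle markers 8 were lower and 2 higher (median -0.69), and their sum was 2463 and 2941 CPM against 4513 and 4999 CPM. Acta2, smooth muscle actin, stood at 1031 and 1269 CPM against 2241 and 2633 CPM (-1.11 ± 0.06), and Myh11 at 52.3 and 118 CPM against 169 and 219.6 CPM (-1.32 ± 0.07). Muscle UMIs are those of Myh11, Actg2, Des and Cnn1 together. Cells with 3 or more of them made up 52.4% and 40.2% of the neurofilament-positive cells and 49.1% and 48.1% of the matched cells. This share was thus higher in replicate 1 and lower in replicate 2. Without these muscle-rich cells Myh11 no longer passed, but its own counts helped to choose them, so the loss is no separate result. The 2 higher genes were Actg2 (0.57 ± 0.14) and Des (0.23 ± 0.07); neither was called without the library term (edgeR adjusted p = 0.312 and 0.205) or by DESeq2 (adjusted p = 0.373 and 0.474). Actg2 was also lost with all comparison cells, with both subunits required, with thinned cells and with at least 4 neurofilament UMIs, where it stood at -0.017; its fold was 1.25 without replicate 1. Des was also lost without muscle-rich cells, which its own counts helped to choose. Of 8 pericyte markers 7 were lower and 0 higher (median -0.86). Myeloid markers were 7 lower of 9 tested (median -0.95), but their sum was 64.5 CPM against 125 CPM in replicate 1 and 12.3 CPM against 7.55 CPM in replicate 2, so that the libraries went in opposite directions. Erythroid markers were 4 lower of 5 (median -1.09), with sums of 106 CPM against 49.4 CPM in replicate 1 and 954 CPM against 2632 CPM in replicate 2.

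Of 29 cell cycle genes, 1 was higher and 18 lower (median -0.36). Cdc20 stood at 39.5 and 34.2 CPM against 57.2 and 70.01 CPM (-0.76 ± 0.09), and the mitotic kinases Aurka and Plk1 fell by 0.81 and 0.79, which DESeq2 did not call (adjusted p = 0.328 and 0.191) and which thinned cells lost; Aurka was also lost without muscle-rich cells. Cells with at least 1 UMI of Mki67, Top2a or Cdk1 were counted as cycling. Their share was 49.0% and 44.9%, against 50% and 47.1% of matched cells. Mki67 itself was seen in 21.8% and 23.9% of the neurofilament-positive cells, against 26.3% and 26.9% of matched cells. Without cycling cells the Cdc20 call was lost, but cell cycle genes had chosen those cells, so the loss is no separate result. Aurka fell by 1.40 without replicate 1. Immediate early and stress genes, which respond to dissociation, were 2 higher and 1 lower of 20 (median 0.022).

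The levels of several genes varied widely within the cells of the rule. In stromal cells thinned to 5000 UMIs, Cxcl13 stood at 0.0205 and 0.0118 UMIs per cell (replicates 1 and 2) with no neurofilament UMI, at 0.0170 and 0.0105 with 1, at 0.0297 and 0 with 2, at 0.112 and 0.287 with 3 to 5, and at 0.977 and 1.06 with 6 or more. Cells at the edge of the rule, with 2 UMIs, were thus close to those just outside it. Agtr2 was more graded, at 0.117 and 0.0869 with none, 0.207 and 0.309 with 1, 0.347 and 0.253 with 2, 0.888 and 0.805 with 3 to 5 and 1.44 and 1.42 with 6 or more. Wnt16 fell over the same classes from 1.42 and 1.27 UMIs per cell to 0.0909 and 0.0428. Mki67 had no such order: it stood at 0.558 and 0.708 with none, at 1.099 and 0.886 with 2, and at 0.364 and 0.257 with 6 or more. The classes themselves were set on the counts before thinning.

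**Figure D4:**
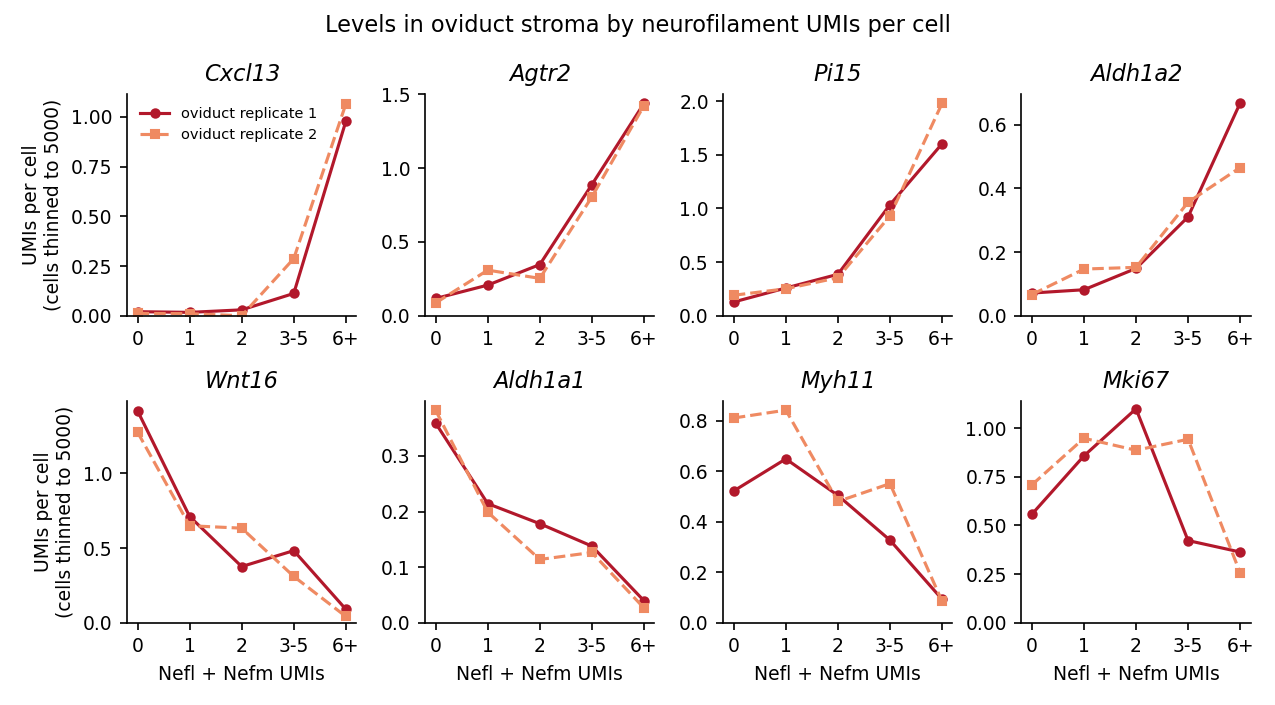
Mean UMIs per cell of 8 genes (vertical axes, cells thinned to 5000 UMIs) in oviduct stromal cells grouped by their summed Nefl and Nefm UMIs (horizontal axes); solid and dashed lines are replicates 1 and 2. Cxcl13 stays below 0.03 up to 2 neurofilament UMIs and reaches 0.977 and 1.06 at 6 or more, and Wnt16 falls to 0.0909 and 0.0428.

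Fewer genes passed outside the cluster that held the largest share of the cells. With that cluster left out of both groups, 263 and 210 neurofilament-positive cells remained, and edgeR's test called 485 of 11681 genes, of which 477 were among the 2497. The markers Cxcl13 and Agtr2 then differed by 4.60 and 1.96 on the log2 scale. The 12 lower and 9 higher genes named by size kept their direction and passed. Among the other genes named above, Hoxb6, Hoxb7, Esr1, Sema3b, Ntf3, Snap25, Igfbp3, Des, Aurka, Plk1 and Cdc20 no longer passed.

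Against uterine stroma of matched depth, the oviduct cells differed at 3292 of 12683 genes (26.0%), 1852 higher (14.6%) and 1440 lower (11.4%) by edgeR's quasi-likelihood test over 2 libraries a group. The organ and the neurofilament status change together in this comparison, so that their parts cannot be told apart here. Hox genes differed in both directions: 18 of 30 were higher and 10 lower (median 1.76, against -0.0011 over all genes). Hoxc8 stood at 187 and 197 CPM against 4.94 and 5.30 CPM (log2 fold change 5.16 ± 0.14, adjusted p = 1.2e-10), and Hoxa11, a uterine Hox gene, at 3.02 and 2.01 CPM against 147 and 124 CPM (-5.75 ± 0.18). Hoxd11 differed by -5.20, Hoxd10 by -3.89 and Hoxa10 by -3.11, and Hoxa7 by 4.18 and Hoxc9 by 4.11 in the other direction. Reads of Hoxc8 and Hoxc9 share their strand and position with Hoxc5 and are uncertain to that extent.

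Several of the higher genes named by size inside the oviduct also stood low in uterine stroma without neurofilament UMIs. Both comparisons use the same neurofilament-positive cells, so this overlap is not read as a result. Pi15 stood at 6.18 and 5.09 CPM in uterine stroma (5.22 ± 0.14), Shisa3 at 0.225 and 0.611 CPM (6.71 ± 0.28, but 5.93 without uterus replicate 1 and 7.39 without replicate 2), Enpp3 at 1.46 and 1.22 CPM (5.30 ± 0.19) and Fmo2 at 3.37 and 4.07 CPM (4.44 ± 0.16). Adamts16 (4.32) and Adh1 (4.66) were likewise higher in the oviduct cells. Brinp3, of a family of neural proteins induced by BMP and retinoic acid, had 3 and 0 UMIs in uterine stroma against 40.4 and 46.3 CPM in the cells, so that its fitted fold depends on the prior count. Cxcl13 stood at 11.9 and 2.24 CPM in uterine stroma, and its log2 difference of 3.91 ± 0.30 was 5.69 without uterus replicate 1 and 3.37 without replicate 2. Angptl1 (6.49), the prostaglandin dehydrogenase Hpgd (4.71) and the synaptic calcium sensor Syt1 (4.56, which overlaps Gm5136 on its strand) completed the named higher genes. Aldh1a1 and Fst, lower in the contrast inside the oviduct, differed here by 5.89 and 4.48, and Fgf10 differed by 4.37.

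The lower genes beside the Hox genes included the protease inhibitors Serpinb1a (-4.17) and Serpinb6b (-3.67), the calmodulin-binding Pcp4 (-4.56, overlapping Igsf5), Col6a4 (-4.14), the carboxypeptidase relative Cpxm2 (-3.91, overlapping Fgfr2), the transcription factor Prdm1 (-3.79), Srgn (-3.59), Plac8 (-3.34) and Neto2 (-3.19). Without oviduct replicate 1 the differences of Serpinb1a, Cpxm2 and Hoxd10 were -4.79, -4.62 and -4.50. Col15a1 (3.04) and the orphan nuclear receptor Nr2f1 (2.68) were higher. Against 14.6% of all genes higher and 11.4% lower, fibroblast markers were 8 higher and 1 lower of 10 (median 1.42), matrix genes 34 higher and 13 lower of 53 (median 0.82), and immediate early genes 12 higher and 3 lower of 20 (median 0.82).

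The uterine libraries gave 24 and 28 cells that met the same conditions, with medians of 3 neurofilament UMIs and maxima of 12 and 21. They carried medians of 28.5 and 17 UMIs of the 4 stromal genes of the rule, against 3 and 3.5 in the matched cells. Fibroblast markers summed to 17673 and 13133 CPM against 3203 and 4329 CPM, and 9 of 9 tested were higher (median 1.72). The part of this imbalance in the uterine differences below was not tested. Against depth-matched uterine stroma, edgeR's quasi-likelihood test with a library term called 428 of 5630 genes (7.60%), 245 higher (4.35%) and 183 lower (3.25%). Gata6, a zinc finger transcription factor, stood at 249 and 162 CPM against 2.80 and 11.2 CPM (4.58 ± 0.45, adjusted p = 0.00026), and Col14a1 at 333 and 209 CPM against 2.80 and 18.0 CPM (4.41 ± 0.46). The fold of Gata6 was 3.27 without uterus replicate 1 and 8.13 without cycling cells, and that of Col14a1 3.11 without replicate 1, 5.24 without replicate 2 and 5.43 without cycling cells. For named genes with 1 to 3 UMIs in all cells of a group the fitted fold depends on the prior count, so the ratio of the summed levels is given with an exact 95% interval for counting error only. Syt1 had 36 and 23 UMIs against 1 and 0 in the matched cells (59.0-fold, 10.2 to 2369), and Stmn2 had 20 and 24 against 0 and 3 (14.7-fold, 4.702 to 73.8). Of the Stmn2 UMIs 75% came from 1 cell in each library, and of the Syt1 UMIs 47.2% and 34.8%. Ltbp2 had 23 and 33 UMIs against 0 and 1 (56.0-fold, 9.65 to 2251), Hpgd 26 and 52 against 0 and 2 (39.0-fold, 10.4 to 328), and C1qtnf3 23 and 17 against 0 and 2 (5.19- to 171-fold); 1 cell gave 61.5% and 67.3% of the Hpgd UMIs and 47.8% and 47.1% of the C1qtnf3 UMIs. The netrin receptor Unc5c had 46 and 26 UMIs against 0 and 5; its log2 fold change of 3.65 was 1.87 without replicate 1 and 4.52 without replicate 2, and its call was lost where both subunits were required. Cntn4, Vegfd, Trac and Lrrn2 had 0 UMIs in the matched uterine cells of both libraries, so that no fold is given. Lower genes included the kinase inhibitor Pkib, with 1 and 0 UMIs against 19 and 22, Amhr2, with 3 and 0 against 18 and 19, and Stra6, with 0 and 3 against 15 and 20. Srgn (-3.37; -2.62 without replicate 2), Serpinb1a (-3.05; -1.95 without replicate 1 and -4.06 without replicate 2), Cd83 (-3.01; -1.71 without replicate 1), the transcription factor Sall1 (-2.99; -2.0002 without replicate 1) and the chemokine Cxcl14 (-2.83) were also lower, and Serpinb1a lost its call with thinned cells. DESeq2 gave no adjusted p for 19 of the 24 genes named by size and called 4 of the others (Gata6, Col14a1, Srgn and Cxcl14), but not Serpinb1a.

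Of the 3 markers of the oviduct cells outside the rule, Pi15 passed the test in the uterus. It stood at 53.1 and 65.2 CPM against 0 and 13.5 CPM (2.89 ± 0.63, edgeR adjusted p = 0.016; 1.82 without replicate 1), and that call was lost without muscle-rich cells, without cycling cells and where both subunits were required. Agtr2 stood at 115 and 58.4 CPM against 27.9 and 40.5 CPM and did not pass (1.13 ± 0.39, edgeR adjusted p = 0.12; 0.34 without replicate 1 and 1.72 without replicate 2). It passed in 3 of 13 other settings, at 2.65 with all comparison cells, at 4.73 without cycling cells and at 1.11 with DESeq2's size factors. Cxcl13 was below the count filter, at 112 and 4.50 CPM, and 82.5% of its UMIs in replicate 1 came from 1 cell. The Hox genes that set the organs apart kept part of their uterine level, with Hoxa11 at 58.7 and 58.4 CPM against 157 and 142 CPM (-1.45 ± 0.27), Hoxd11 differing by -1.22 and Hoxa10 by -0.87, while Hoxc10 (2.26; 1.36 without replicate 1) and Hoxc9, with 10 and 19 UMIs against 1 and 1 (14.5-fold, 3.67 to 125), were higher, both overlapping Hoxc5. The calls of Hoxa11, Hoxd11 and Hoxa10 were lost with DESeq2 (adjusted p = 0.157, 0.0873 and 0.280) and with cells thinned to 5000 UMIs, and that of Hoxc10 without muscle-rich cells and without cycling cells. Immediate early genes were 14 higher and 0 lower of 19 (median 1.27, against 0.019 over all genes, of which 4.35% were higher), including Dusp1 at 123 and 324 CPM against 8.39 and 36.0 CPM and Atf3 at 106 and 234 CPM against 11.2 and 29.2 CPM; the part of this response in the other uterine differences was not tested.

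The contrasts inside the organs share no library. Of 5627 genes tested in both, 1429 were called in the oviduct and 426 in the uterus, and 289 were called in both, which is 20.2% of the oviduct calls and 67.8% of the uterine calls. Of the 289, 256 (88.6%) had the same direction. The share with the same direction over all 5627 genes is not given here, so the 88.6% is only a description. Of the 24 genes named by size inside the oviduct, 12 could be tested in the uterus, and all 12 had the same sign there. A gene with few uterine UMIs passes the count filter through the group where it is high, so the shared sign is only a description. Of the 12, 6 passed, where 7.60% of all 5630 genes tested in the uterus did. That count depends on the same filter and is likewise only a description. The cells differed from their matches in stromal UMIs in both organs.

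**Figure D5:**
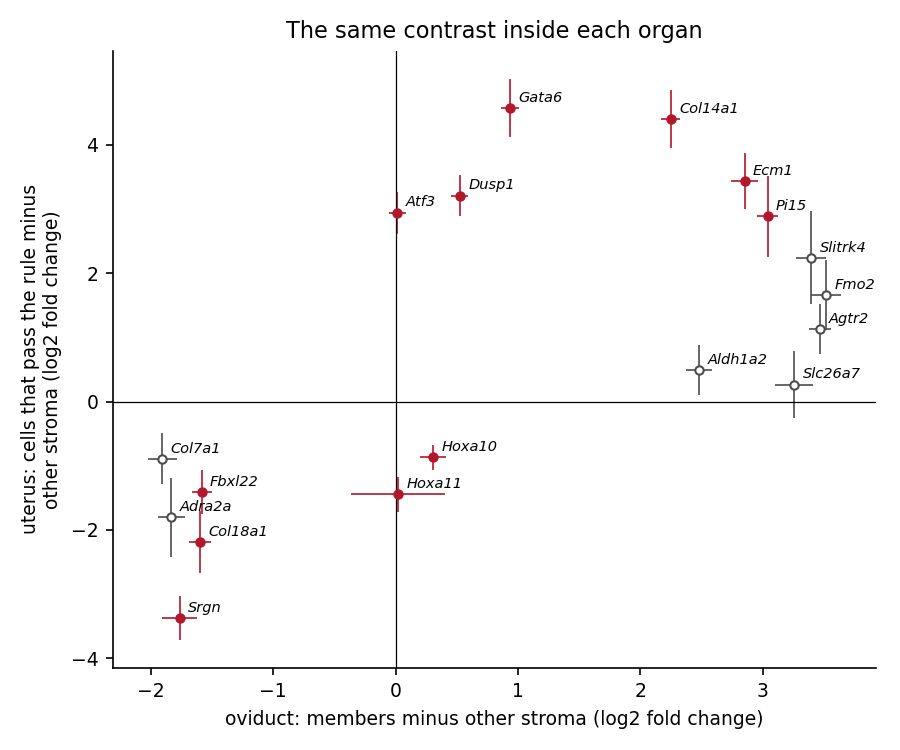
Log2 fold change of neurofilament-positive against other stroma inside the oviduct (horizontal axis) and inside the uterus (vertical axis) for named genes tested in both; bars are standard errors and filled points passed edgeR's test in the uterus. Genes with at most 3 UMIs in a group are not drawn. Pi15 lies at 3.04 in the oviduct and 2.89 in the uterus, and Gata6 at 0.94 and 4.58.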

How the data were processed

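The authors deposited UMI counts per gene and barcode, unnormalized, for 31053 genes. The filtered matrices were written by Cell Ranger 6.0.1 and the unfiltered ones by Cell Ranger 4, per the file headers; mm10 and Seurat 4.2.3 are given in the submitters' processing notes. The members and gene lists were chosen with earlier results of these data known.

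From the counts, cells were gated as in the opening of the report, and members and matched cells (1 to 1 on total UMIs, within a library or, for the uterus, to the same replicate number) were summed per library. The sums, between 357755 and 8934749 UMIs, were tested with edgeR 4.0.16 (TMM, filterByExpr, glmQLFit, glmQLFTest; a library term inside an organ, none between organs), with Benjamini-Hochberg adjustment over all genes tested and DESeq2 1.42.0 as an alternative. The 9 rule genes were left out. Inside an organ the fit had 1 residual degree of freedom. For each test, the named genes are the 12 largest changes per direction among calls with a mean of at least 20 CPM, in the same direction in both libraries (no overlap between organs), without predicted, mitochondrial, ribosomal and haemoglobin genes, and the 3 largest calls per list and direction, with a few fixed genes. Clusters came from scanpy 1.11.5 (2000 variable genes, 30 components, 15 neighbours, Leiden resolution 1, and 0.5 among members). The fits were tested on simulated data. A few genes are not reported here.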

Additional observations from a re-analysis of the deposited data

Results flagged for a closer look

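For 24 of the genes whose values the report gives, the contrast of neurofilament-positive against other stroma differed between oviduct and uterus in 1 edgeR model of all 8 sums, chosen after the separate fits were seen, with a library term and Benjamini-Hochberg adjustment over 11706 genes, of which 464 passed. Genes with at most 3 UMIs in a group of either organ, such as Trac, Syt1, Ltbp2, Hpgd and Hoxc9, are left out. The values are differences of log2 fold changes, oviduct minus uterus, and the uterine side rests on 24 and 28 cells.

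Genes that were raised more in the oviduct, or lowered more in the uterus, were Agtr2 (2.32; 3.47 in the oviduct and 1.15 in the uterus), Slc26a7 (2.90), Aldh1a2 (1.98), Cd83 (3.00), Cxcl14 (2.26), Sall1 (2.05), Plac8 (2.50), Srgn (1.65), Hoxa10 (1.18) and Des (0.75). Of these, Hoxa10 had opposite signs, 0.31 in the oviduct and -0.87 in the uterus, as did Des, at 0.23 and -0.52. Igfbp3 (3.83) also had opposite signs, 1.49 in the oviduct and -2.35 in the uterus.

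Genes with the larger contrast in the uterus were Gata6 (-3.69; 0.94 in the oviduct and 4.63 in the uterus), Actg2 (-3.00), Atf3 (-2.93; 0.01 and 2.94), Unc5c (-2.74), Dusp1 (-2.67), Hoxc8 (-2.27), Col15a1 (-2.14), Col14a1 (-2.19) and Dcn (-1.40). The Notch target Hes1 (-2.60) had opposite signs, -1.02 in the oviduct and 1.58 in the uterus, as did the orphan nuclear receptor Nr2f1 (-3.71; -0.63 and 3.08) and the cell cycle gene Cdc20 (-1.55; -0.76 and 0.79). Of the uterine UMIs of Actg2 71.4% and 70.1% came from 1 cell in each library, and the oviduct fold of Actg2 turned in 1 setting. Hoxc8 stood at -0.11 in the oviduct, where it had not passed, and at 2.16 in the uterus. Acta2 differed by -1.07, from -1.11 in the oviduct and -0.045 in the uterus. Cxcl13 differed by 3.02 and did not pass (edgeR adjusted p = 0.170).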

How the results depend on the processing

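Inside the oviduct the 2497 calls became 1576 without cycling cells, 1446 with cells thinned to 5000 UMIs, 568 with DESeq2, 485 without the cluster that held the largest share of the cells (added after the data were seen) and 1208 with no replicate block, that is without the library term; under the other planned settings they ran from 1813 to 3302. Against uterine stroma the 3292 calls became 5094 with no match on depth, 2090 with thinned cells and 1901 with DESeq2, and 2577 to 3419 with 1 library left out. Inside the uterus the 428 calls became 962 with no match, 243 with both subunits required, 195 without muscle-rich cells, 217 without cycling cells, 127 with thinned cells and 105 with DESeq2, which gave no adjusted p for 2947 of 5630 genes. Fewer cells or genes were tested in most of these settings; otherwise the cause was not tested.

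The sources used here do not say whether a shared replicate number marks a shared pool. The deviations of same-numbered oviduct and uterine sums correlated at 0.0361, with 2 pairs. With the replicate number as a block the comparison with uterine stroma gave 3589 calls, 3202 of them shared, and without the library block the uterine contrast gave 455. The share differed by 11.3 and 9.19 percentage points between same-numbered libraries, by 9.23 to 11.3 with 1 library left out, and by 6.77 (both subunits) to 11.8 (3 stromal UMIs) under the cell settings.

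Leaving out a library inside an organ leaves no residual degrees of freedom, so only folds were taken. Among 68 oviduct genes 1 changed sign, Hoxa11, which had not passed. Folds moved by over 1.5 times for 6 genes without replicate 1 (Actg2, Amhr2, Aurka, Lgr5, Sema3b and Sox9, the last from 2.46 to 1.66) and for 3 without replicate 2 (Cd3e, Cxcl10 and Sema3b; Cxcl10 from 1.33 to 2.22). In the uterus 20 of 28 moved that far without replicate 1 and 12 of 27 without replicate 2, and 0 changed sign. Actg2 in the oviduct turned, to -0.017, where at least 4 neurofilament UMIs were required. With 24 and 28 uterine cells, genes under the count filter, such as Cxcl13, were beyond the depth of that contrast.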

Other observations

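A T-cell receptor gene stood out among genes outside the lists, chosen after its values were seen. Cd3e, the CD3 epsilon chain, had 151 and 155 UMIs in the neurofilament-positive oviduct cells and 32 and 71 in the matched cells (16.9 and 31.2 CPM against 3.59 and 14.5 CPM; log2 fold change 1.54 ± 0.17). It was seen in 10.4% and 19.4% of the cells against 2.56% and 5.05% of matched cells, and in 4 of 24 and 4 of 28 uterine cells of the rule against 0 of 24 and 0 of 28. Its partners Cd3g (0 and 3 UMIs) and Cd3d (0 and 1) and the leukocyte gene Ptprc (12 and 1) were at or near 0 in the same oviduct cells. The T-cell receptor gene Trac was seen in 16 of 586 and 12 of 376 of them against 14 and 6 matched cells and did not pass (edgeR adjusted p = 0.0534), and in 5 of 24 and 5 of 28 uterine cells of the rule against 0 and 0 matched cells, with 46.2% and 39.1% of its uterine UMIs in 1 cell. The Cd3e call was lost in edgeR's fit without the library term and without the cluster that held the largest share of the cells. Mme, a membrane peptidase of many stromal cells, stood at 58.3 and 76.7 CPM against 15.4 and 14.3 CPM (2.10 ± 0.11).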
